A study of Homo sapiens with 6 samples.

Results

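The genes described are 6 of the 60835 symbols in the count table: the Kunitz-type inhibitors SPINT1 and SPINT2, the serine proteases ST14 and PRSS8, and the receptor tyrosine kinases MET and MST1R. They were selected on the contrast between R272K and wild-type SMAD4 with earlier results of these data known, so their values in that contrast are given as a description and support nothing further. 1 table row was found for each symbol.

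ST14 encodes matriptase and PRSS8 encodes prostasin, membrane-bound trypsin-like proteases of epithelial cells that can activate each other. SPINT1 and SPINT2 encode HAI-1 and HAI-2, transmembrane proteins whose Kunitz domains block these proteases. Matriptase and related enzymes cleave the inactive precursor of hepatocyte growth factor (HGF), the ligand of MET. The related macrophage-stimulating protein, encoded by MST1, is the ligand of MST1R, also called RON, and is likewise activated by cleavage. In carcinoma cells the balance of these proteases and inhibitors at the surface influences ligand activation, and MET signalling is linked to motility and invasion.

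All libraries came from PANC-1, an established human line of pancreatic epithelioid carcinoma, after knockout of SMAD4, and were collected on day 3. The WT group (n = 3) received wild-type SMAD4. The R272K group (n = 3) received SMAD4 in which an arginine is replaced by lysine. The labels describe both as transfected. The sources used here do not say how SMAD4 was knocked out, whether the cells were 1 clone or which promoter drove the introduced SMAD4, and no library of knockout cells without added SMAD4 was analysed here. Nothing in the labels says that replicates came from separate cultures, so the spread between libraries may be technical.

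Total counts over distinct symbols were 14776148 to 17706201 per library. SMAD4 itself stood at 88.7 ± 5.13 CPM (counts scaled to library totals after TMM normalization) with WT and 43.3 ± 2.56 CPM with R272K (SD, n = 3 each). The amount of SMAD4 transcript and the substitution thus cannot be told apart in any comparison below. These counts do not separate the introduced SMAD4 from any transcript of the knocked-out gene. On the first principal component WT replicate 1 lay at -31.3 and the remaining libraries at -9.56 to 15.6. Its log2 CPM, less the mean of WT replicates 2 and 3, decreased with length (rho of -0.41 over genes, a description), so results are also given without it where it mattered. Of 10 markers of ductal epithelium, 8 were above 1 CPM on average, led by KRT8, and their summed level was 3283 to 4019 CPM in WT and 4102 to 4411 CPM in R272K libraries, with 1 gene called higher (CDH1). Of the markers of other cells, 0 of 9 acinar and endocrine genes, 1 of 6 leukocyte genes (CD14) and 1 of 4 endothelial genes (KDR) exceeded 1 CPM, and none of these was called. Among 5 fibroblast and muscle genes 1 did, COL1A1, at 195 CPM on average and called higher with R272K. That list summed to 145 to 153 CPM in WT and 229 to 251 CPM in R272K, nearly all of it COL1A1. The part of these shifts in the results was not tested.

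Promoter sequence in the reference table was found for 3 of the 6 genes, in 4 windows, and is shown because SPINT1 was the member with the clearest difference and MST1R and MET are a related pair with unlike values. Each stretch lies before a transcription start of RefSeq (GRCh38.p14) and leaves out every untranslated region annotated by GENCODE 29. The stretch before the second SPINT1 start lies in the first intron of SPINT1 transcripts that begin upstream, and most of it lies opposite the antisense gene SPINT1-AS1. All of the stretch before the first SPINT1 start also lies opposite SPINT1-AS1, and all of the MST1R stretch lies opposite the gene AC105935.1. Capitals mark CAGAC, the short element bound by SMAD proteins, or CAGGTG, an E-box bound by the ZEB and SNAI repressors, on either strand (GTCTG and CACCTG). The motifs were chosen after the sequences were seen.
SPINT1, first start, chr15:40843798-40844017, plus strand: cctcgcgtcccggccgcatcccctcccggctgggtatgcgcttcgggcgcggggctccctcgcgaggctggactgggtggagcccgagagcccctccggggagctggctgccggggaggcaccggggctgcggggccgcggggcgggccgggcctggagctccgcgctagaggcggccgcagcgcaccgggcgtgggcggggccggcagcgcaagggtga
SPINT1, second start, chr15:40844279-40844476, plus strand: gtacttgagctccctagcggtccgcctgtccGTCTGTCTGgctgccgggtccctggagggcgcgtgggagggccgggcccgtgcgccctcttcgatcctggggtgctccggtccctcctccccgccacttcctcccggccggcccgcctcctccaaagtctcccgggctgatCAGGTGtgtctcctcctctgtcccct
MST1R, chr3:49903874-49904123, minus strand: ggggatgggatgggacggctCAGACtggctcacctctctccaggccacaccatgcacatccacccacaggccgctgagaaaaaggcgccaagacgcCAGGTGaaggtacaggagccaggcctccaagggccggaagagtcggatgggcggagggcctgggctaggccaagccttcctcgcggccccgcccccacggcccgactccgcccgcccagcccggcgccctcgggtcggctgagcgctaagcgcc
MET, chr7:116671946-116672195, plus strand: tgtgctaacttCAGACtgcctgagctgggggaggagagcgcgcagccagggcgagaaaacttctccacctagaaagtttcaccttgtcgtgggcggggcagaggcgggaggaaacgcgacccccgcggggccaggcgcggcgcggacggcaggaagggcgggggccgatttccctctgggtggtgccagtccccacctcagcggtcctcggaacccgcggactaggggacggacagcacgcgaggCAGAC

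CAGAC was present in the MST1R window, in the MET window and in the second SPINT1 window, and 45.3% of all 35116 RefSeq windows of 300 bases held it. In the second SPINT1 window 2 copies overlapped, as GTCTGTCTG, at chr15:40844310-40844318. The MET window also held 2 overlapping copies, at chr7:116672191-116672195 and chr7:116672195-116672199. The latter copy spans the MET start and is not wholly in the printed stretch. Further MET copies lay at chr7:116671957-116671961 and chr7:116672230-116672234. An overlapping pair was thus not particular to SPINT1. CAGGTG began 26 bases before the second SPINT1 start and 154 bases before the MST1R start, with another MST1R copy beginning at base 25 of the transcript. The share of all windows with this E-box was 20.6%. The third motif searched, TGAGTCA of AP-1 (TGACTCA on the other strand), is in 4.95% of windows. Its copy at chr15:40844042-40844048 spans the first SPINT1 start and lies outside the printed stretch. These matches describe letters, and binding was not measured.

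Per unit of transcript length, the inhibitor SPINT2 was the most abundant of the 6 transcripts and the 2 proteases were the least. In TPM, the authors' values scaled by transcript length, SPINT2 lay between 160 and 192 over the 6 libraries, with a mean of 171, and 93.5% of the 15911 genes tested had a lower mean. MET followed at 50.2 to 72.6 TPM, then MST1R at 20.9 to 30.9 TPM and SPINT1 at 13.9 to 22.6 TPM. ST14 lay at 0.503 to 1.18 TPM and PRSS8 at 0 to 0.462 TPM. The ranges of MST1R and SPINT1 overlapped, although MST1R was above SPINT1 within each of the 6 libraries. No other pair of neighbours in the order overlapped. The plot of levels by library shows this gap between inhibitor and protease transcripts.

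**Figure D1:**
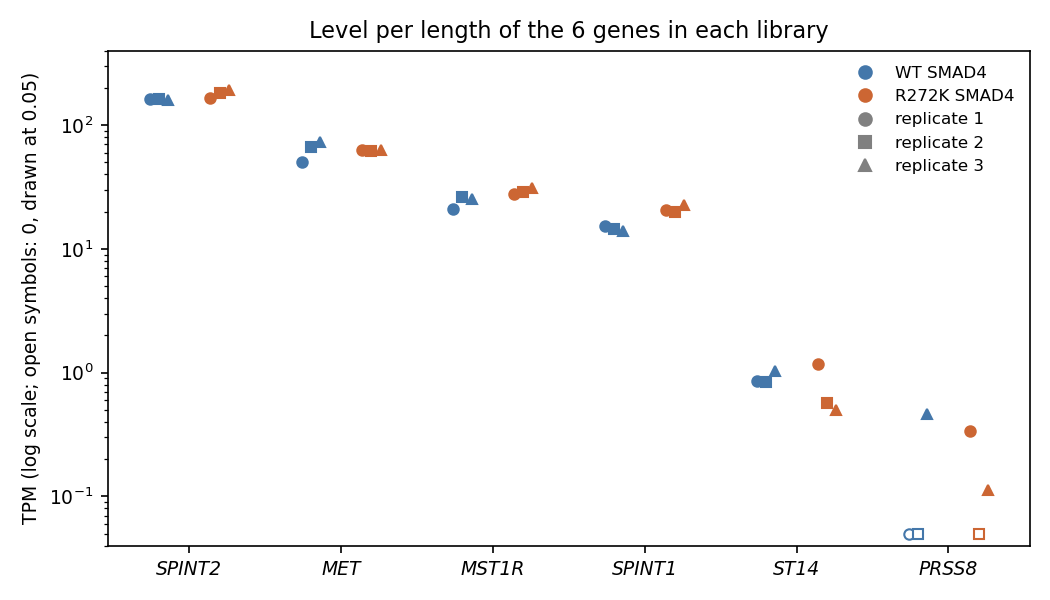
TPM on a log axis for each of the 6 genes in each library, WT in blue and R272K in orange, with 1 symbol shape per replicate and open symbols for libraries with no read. SPINT2 lies highest at 160 to 192 TPM, while ST14 and PRSS8 lie near or below 1 TPM in both groups.

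Of the inhibitors SPINT1 and SPINT2, SPINT1 had the larger fold change. It is encoded on chromosome 15 (ENSG00000166145, 40844018 to 40858207, GRCh38, plus strand). Its level was 15.9, 14.0 and 13.1 CPM in WT replicates 1 to 3 and 20.0, 19.4 and 21.7 CPM in the R272K replicates. Every R272K library was above every WT library. The means were 14.3 ± 1.4 and 20.3 ± 1.21 CPM (SD, n = 3 each), a 1.42-fold higher level with R272K (95% interval 1.22 to 1.65), or a log2 fold change of 0.50 (SE 0.103). In the fit over all genes it had an adjusted p of 0.0324 (edgeR's quasi-likelihood test, Benjamini-Hochberg) and ranked 139th by p. It was the 1 member called of 5 tested. Over all genes 1.21% were called, 0.685% higher and 0.528% lower with R272K, and because the genes were selected on this contrast nothing is read from that comparison. The call was lost when any library other than WT replicate 1 was left out, with log2 fold changes of 0.44 to 0.54 and adjusted p of 0.0591 to 0.215. Without WT replicate 1 the log2 fold change was 0.59 (adjusted p = 0.000402).

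SPINT2 (ENSG00000167642, chromosome 19, 38244035 to 38292615, plus strand) did not separate the groups. It stood at 213, 198 and 188 CPM in the WT replicates and at 200, 222 and 230 CPM in the R272K replicates. WT replicate 1 lay above R272K replicate 1, so the groups overlapped. The log2 fold change was 0.12 (SE 0.0714, 95% interval -0.03 to 0.27) and SPINT2 was not called. Without WT replicate 1 it was called at 0.17 (adjusted p = 0.0373), in a fit in which 5.36% of 16334 genes were called. The ratio of SPINT2 to SPINT1, both in TPM, was 10.8, 11.3 and 11.5 in WT and 8.04, 9.19 and 8.49 in R272K. SPINT2 thus stayed more abundant than SPINT1 in each library, with a smaller excess in all 3 R272K libraries.

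**Figure D2:**
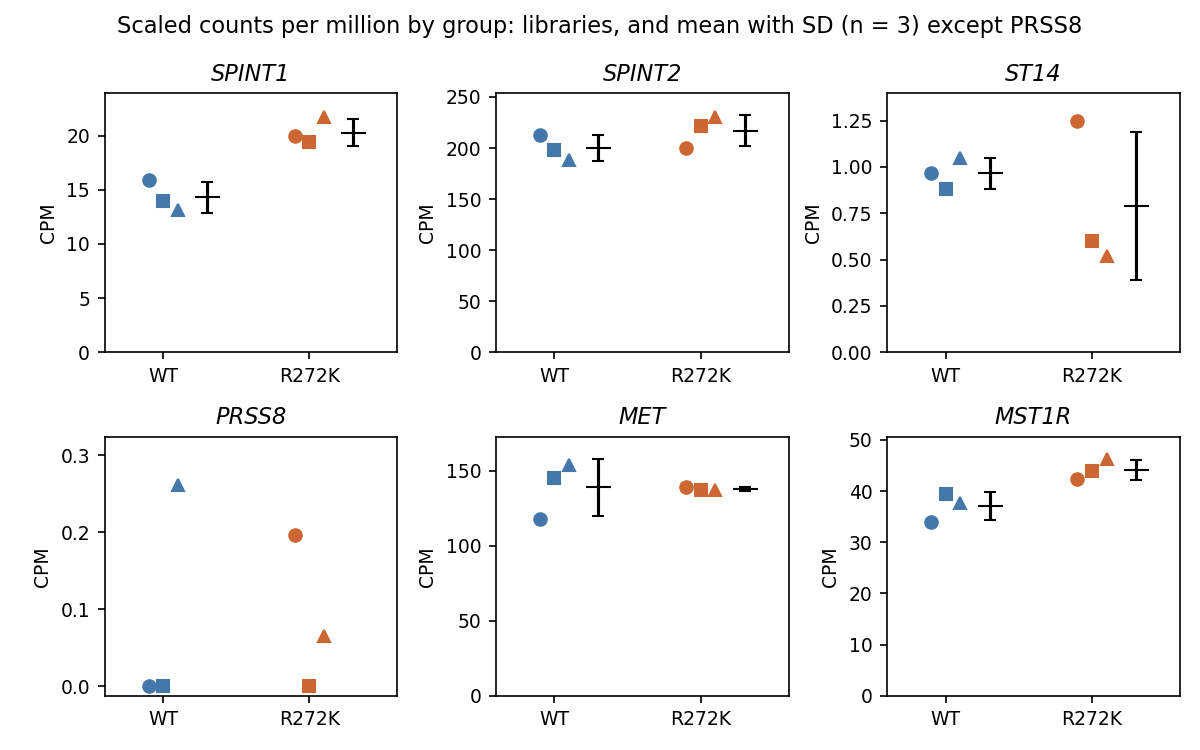
CPM of each gene by group, with 1 point per library (circle, square and triangle for replicates 1, 2 and 3) and, except for PRSS8, the mean and SD (n = 3). SPINT1 and MST1R do not overlap between groups, whereas SPINT2, ST14, PRSS8 and MET do.

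The protease transcripts were close to the limit of what this depth can measure. ST14 (ENSG00000149418, chromosome 11, 130159782 to 130210362, plus strand) had 17, 13 and 16 reads in the WT replicates and 19, 9 and 8 in the R272K replicates. R272K replicate 1 was the highest of the 6 and the other two R272K libraries the lowest. The means were 0.965 ± 0.0848 and 0.789 ± 0.399 CPM (SD, n = 3 each), and the log2 fold change was -0.29 (SE 0.386). The 95% interval of the fold change, 0.459 to 1.46, includes both a marked fall and a rise, so a difference was not detectable at this depth. Without R272K replicate 1 the log2 fold change was -0.78 and without R272K replicate 3 it was -0.06, neither called.

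PRSS8 (ENSG00000052344, chromosome 16, 31131433 to 31135727, minus strand) had 0, 0 and 4 reads in the WT replicates and 3, 0 and 1 in the R272K replicates. It did not pass the filter on low counts and was not tested. Each group summed to 4 reads, with an exact 95% Poisson interval of 1.09 to 10.2 that covers counting error only. A library with no read allows up to 3 reads, or 0.169 to 0.203 CPM at these depths.

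Inhibitor transcripts exceeded matriptase transcripts in every library. The ratio of SPINT1 to ST14 in TPM was 13.5 to 17.7 in WT and 17.3, 35.0 and 45.0 in R272K. For SPINT2 to ST14 it was 156 to 195 in WT and 139, 322 and 382 in R272K. R272K replicate 1 lay within or below the WT range in both ratios, and the few ST14 reads set their spread.

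The 2 receptors differed in how they stood between the groups. MST1R (ENSG00000164078, chromosome 3, 49887002 to 49903873, minus strand) was at 34.0, 39.4 and 37.6 CPM in the WT replicates and at 42.3, 43.9 and 46.2 CPM in the R272K replicates. All R272K libraries were above all WT libraries. The log2 fold change was 0.25 (SE 0.0798, 95% interval 0.08 to 0.43), a 1.19-fold higher mean, and MST1R was not called in the fit over all genes. Its value lay between 0.20 and 0.30 under the 17 alternatives and was called in none. Non-overlap of the groups was seen for 2 of the 5 tested members, SPINT1 and MST1R, and for 21.4% of all genes tested.

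MET (ENSG00000105976, chromosome 7, 116672196 to 116798377, plus strand) stood at 118, 145 and 154 CPM in the WT replicates and at 139, 137 and 137 CPM in the R272K replicates. The R272K libraries lay together, between WT replicate 1 and WT replicates 2 and 3. The log2 fold change was -0.02 (SE 0.0862, 95% interval -0.20 to 0.17), so changes beyond 0.870-fold or 1.13-fold lie outside the interval. MET is a long transcript, longer than 86.4% of genes tested. WT replicate 1, whose log2 CPM decreased with length relative to WT replicates 2 and 3, had the lowest MET value. The part of length in the MET value of that library was not tested. Without that library the log2 fold change was -0.12 (adjusted p = 0.128), and it was -0.06 after removal of the trend with length from each library, which was added once the data had been seen. The ratio of MET to MST1R in TPM was 2.41, 2.56 and 2.85 in WT and 2.28, 2.17 and 2.06 in R272K, so MET remained the more abundant receptor transcript in each library. The adjusted p of the 4 tested members that were not called ranged from 0.16 to 0.954.

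Overlapping genes could have shared reads with the members, since the sources used here do not say if reads were counted by strand. SPINT1-AS1, opposite SPINT1, had 16 reads in the 6 libraries together, and AC105935.1, opposite MST1R, had 63. PPP1R14A, within the deposited span of SPINT2 on the other strand, had 14351 reads, and any division of reads between them was not tested. No read was assigned to AC011479.1, on the same strand as SPINT2, to AC105935.2, opposite MST1R, or to the gene overlapping PRSS8. Whether reads in these overlaps were left uncounted was not tested. No overlapping gene was listed for ST14 or MET.

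**Figure D3:**
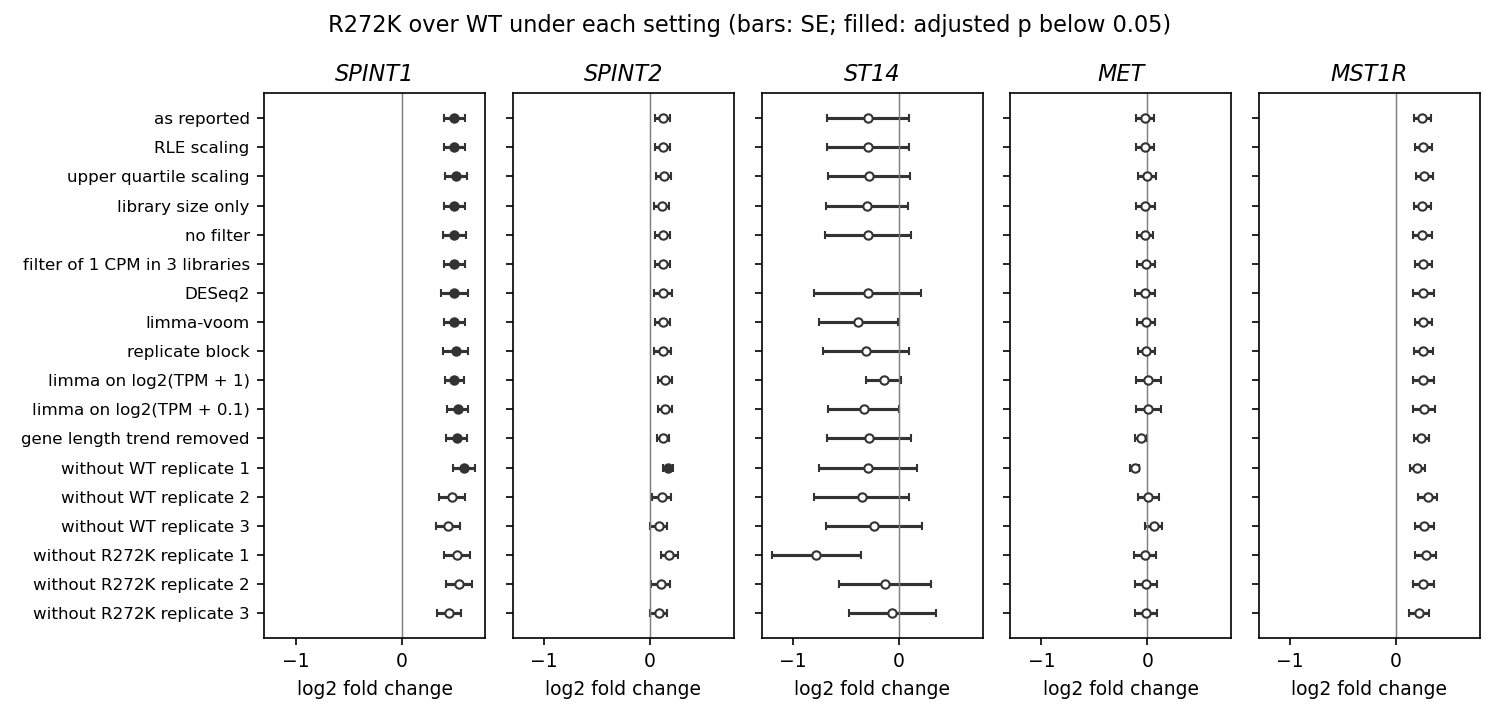
Log2 fold change of R272K over WT for the 5 tested members, as reported and under each of 17 alternatives, with SE bars and filled points where the adjusted p was below 0.05 (ST14 did not pass the filter of 1 CPM in 3 libraries). SPINT1 lies at 0.44 to 0.59 throughout, MST1R at 0.20 to 0.30, MET around 0, and ST14 spreads from -0.78 to -0.06.

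The wider pathway was described with 88 other genes in 5 lists, of which 55 passed the filter on low counts. Of the 55, 1 was called higher, 0 lower and 54 were not called, a share near the 1.21% called over all genes. An unadjusted p under 0.05 was found for 13 of the 55 and for 14.3% of all genes tested. The median log2 fold change of the 55 was 0.10, against 0.00 over all genes tested. The called gene was STAT3, a transcription factor that binds activated MET. It rose from 255, 266 and 268 CPM in WT to 319, 320 and 322 CPM in R272K, by 0.29 on the log2 scale (SE 0.0572), with an adjusted p of 0.0281 by edgeR's quasi-likelihood test. All R272K libraries were above all WT libraries. The call was lost without WT replicate 2 or any 1 of the R272K libraries (adjusted p 0.135 to 0.207) and on the TPM values with limma.

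HGF transcripts were scarce in both groups, and neither ligand was called. HGF had 32 reads in the WT and 35 in the R272K libraries, or 0.685 ± 0.198 and 0.767 ± 0.163 CPM (SD, n = 3 each), and its log2 fold change was 0.18 (95% interval -0.65 to 1.02). MST1 stood at 4.25 ± 0.57 and 4.05 ± 0.212 CPM, a log2 fold change of -0.06 (95% interval -0.43 to 0.30). MST1 has near-identical copies in the genome, so its counts are uncertain. Neither ligand was called by edgeR or limma-voom, DESeq2 did not call MST1 and gave no adjusted p for HGF, and 0 of 2 had an unadjusted p under 0.05.

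Of 27 genes for proteases that activate these ligands or resemble matriptase and prostasin, 8 were tested and 0 were called by edgeR, with 2 at an unadjusted p under 0.05, 1 called by DESeq2 and 0 by limma-voom. Most of the 19 that were not tested were near 0, among them, named after their values were seen, HPN, which encodes hepsin, with 2 reads in WT and 6 in R272K, and HGFAC, the HGF activator gene, with 9 and 10. PLAU, the gene of urokinase, was the most abundant at 477 TPM on average, far above ST14 at 0.83 TPM. PLAU stood at 392, 360 and 362 CPM in WT and 438, 428 and 450 CPM in R272K, with no overlap (log2 fold change 0.24, SE 0.0605, adjusted p = 0.0841). It was called by DESeq2 (adjusted p = 0.0316), with no filter, with the length trend removed and without WT replicate 1 (adjusted p = 4.82e-06), while its adjusted p reached 0.362 under the other alternatives. TMPRSS2, a transmembrane serine protease gene, was at 5.08 ± 0.216 and 6.94 ± 0.891 CPM (0.45, adjusted p = 0.18), and TMPRSS6 at 0.601 and 0.921 CPM (0.59, adjusted p = 0.496). PRSS22, a tryptase-like protease gene named here after its values were seen, had 78.8 TPM on average and a log2 fold change of -0.05.

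Among 18 other Kunitz-domain genes and serpins that act on such proteases, 9 were tested and 0 were called by edgeR, DESeq2 or limma-voom, with 1 at an unadjusted p under 0.05. That gene was COL6A3, a collagen chain gene with a Kunitz domain, at 1.29 ± 0.229 CPM in WT and 2.19 ± 0.293 CPM in R272K (log2 fold change 0.77, SE 0.262, adjusted p = 0.204). APP, whose longer isoforms carry a Kunitz domain, was the most abundant at 2178 and 2347 CPM (0.11, adjusted p = 0.41) and was called only without WT replicate 1. SERPINA5, the protein C inhibitor gene, stood at 0.577 and 0.875 CPM (0.58, adjusted p = 0.562), and its log2 fold change was 0.90 without WT replicate 1 and 0.24 without R272K replicate 3.

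Of 10 genes for surface proteins cleaved by these proteases or partnered with such a protein, 6 were tested and 0 were called by edgeR, DESeq2 or limma-voom, with 2 at an unadjusted p under 0.05. F2RL1, which encodes the protease-activated receptor PAR2, was the most abundant at 796 ± 18 and 805 ± 28.3 CPM, a log2 fold change of 0.01 (95% interval -0.11 to 0.14). EPCAM, an epithelial adhesion protein gene whose product matriptase cleaves, stood at 3.54, 4.33 and 3.08 CPM in WT and 4.73, 5.19 and 4.43 CPM in R272K. The groups did not overlap, but the log2 fold change of 0.39 (SE 0.177) was not called (adjusted p = 0.338). CLDN7, a claudin bound by EPCAM, was at 24.6 and 26.8 CPM (0.13, adjusted p = 0.539). PLAUR, the urokinase receptor gene, was the one with the lower value in R272K, 18.8 ± 1.46 against 23.5 ± 2.5 CPM (-0.33, adjusted p = 0.159).

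The 31 genes for partners and adaptors of the receptors included 30 that were tested, with 1 called higher (STAT3), 0 lower and 29 not called. DESeq2 called 2 of them. An unadjusted p under 0.05 was found for 8 of the 30, against 14.3% of all genes, and 20 of the 30 fold changes were above 0, against 49.7% of all genes, with a list median of 0.07. PLXNB2, a plexin that associates with MET and MST1R, was at 117 and 142 CPM (0.28, adjusted p = 0.0861). It was called by DESeq2 (adjusted p = 0.0461), with no filter, with the length trend removed and without WT replicate 1 (adjusted p = 0.0031), while its adjusted p reached 0.377 under the other alternatives. ITGB4, an integrin subunit that serves as a platform for MET signalling, was at 32.7 and 40.3 CPM (0.30, adjusted p = 0.118). CD44, a co-receptor of MET and the most abundant of the list, stood at 751 and 773 CPM (0.04, adjusted p = 0.789). Without WT replicate 1, 4 of the list were called, in the fit that called 5.36% of all genes.

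**Figure D4:**
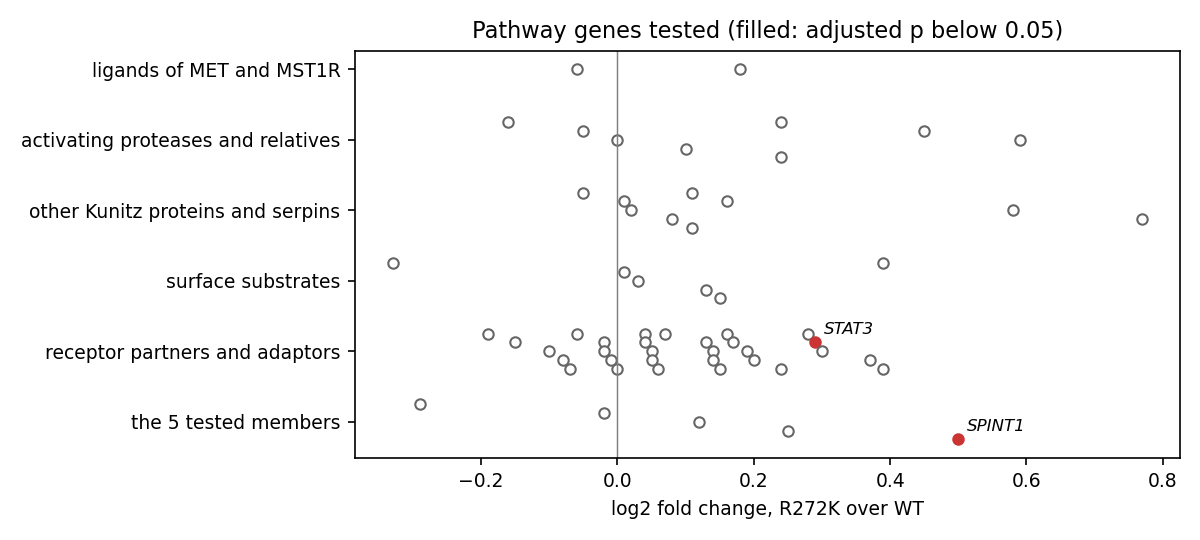
Log2 fold change of R272K over WT for the 55 tested pathway genes in 5 lists and for the 5 tested members, each point 1 gene, shifted vertically only to separate points, and filled where the adjusted p was below 0.05. STAT3 at 0.29 and SPINT1 at 0.50 are the filled points.

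The genes closest in pattern to each member were named by the smallest root mean square difference of mean-centred log2 CPM over the 6 libraries, as a description. SPINT1 was closest to CX3CL1, a chemokine gene (difference 0.0597), and CD69, a membrane receptor gene (0.0652). CX3CL1 stood at 38.4, 37.2 and 34.4 CPM in WT and 54.5, 48.0 and 55.1 CPM in R272K. MST1R was closest to MYLIP (0.0225), a ubiquitin ligase gene, and AXIN2 (0.0284), a Wnt pathway target. MET was closest to PRKCA (0.0212), a kinase gene longer than 93.9% of those tested, and FOXN2 (0.0213), longer than 75.9%. Both were lowest in WT replicate 1, as MET was, which follows from their choice by pattern. SPINT2 was closest to SMIM29 (0.0239) and PRAME (0.0272). ST14 was closest to MDK, a growth factor gene (0.117), and the pseudogene ABCA17P (0.157). Both were highest in R272K replicate 1, again through their choice by pattern.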

How the data were processed

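RNA was sequenced from 6 libraries of SMAD4-knockout PANC-1 cells, 3 with WT and 3 with R272K SMAD4, after poly(A) selection and random priming per the labels' protocols. The submitters' processing notes name fastp 0.23.0, HISAT2 2.1.0, SAMtools, HTSeq 0.10.0 and GRCh38. Their settings and annotation release are not known from these sources. Per the file headers, the authors' tables hold raw counts and TPM by symbol, and for each gene the ratio of the deposited counts to TPM was the same up to 1 factor per library. Each of 60835 symbols was used once, since 1875 lines repeat symbols with several identifiers.

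Genes passing edgeR's expression filter (minimum count 10, minimum total 15; 15911 genes) were TMM-scaled. The two-sided test was the quasi-likelihood test of edgeR in its robust form, with the group as the only term and Benjamini-Hochberg adjustment over all genes, called below 0.05. Log2 fold changes are R272K over WT. SE is the fold change divided by the square root of F, and 95% intervals use the test's total degrees of freedom. The test was tested on simulated data. Counts of libraries within a group differed by more than sampling (chi-square divided by its degrees of freedom, at least 1.85).

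The members and lists were chosen with earlier results of these data known. Named genes were the members, SMAD4, both ligands, the 3 smallest p and the most abundant gene of each list, and 2 neighbours in pattern per member (mean CPM of at least 1, 0.01 added before log2). Alternatives were other scalings, filters, DESeq2, limma-voom, limma on log2(TPM + 1) or log2(TPM + 0.1), the replicate block, each library left out and, added after seeing the data, removal of each library's gene length trend. Tests were run in R 4.3.3 (DESeq2 1.42.0, limma 3.58.1, edgeR 4.0.16), and tables and plots were made in Python 3.11.15 (matplotlib 3.10.9, pandas 2.3.3, numpy 2.4.6).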

Additional observations from a re-analysis of the deposited data

How the results depend on the processing

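Of 370 recomputed log2 fold changes of single genes, 341 kept their direction and side of the threshold, 11 lost a call, 11 gained one and 7 changed sign. The 341 include the DESeq2 values of ST14, HGF, TMPRSS6 and SERPINA5, which had no adjusted p and were counted as not called. Each value that changed sign was smaller in size than its SE as reported. MET went from -0.02 to 0.01 with limma on log2(TPM + 1) or log2(TPM + 0.1) and without WT replicate 2, and to 0.06 without WT replicate 3. HGF went from 0.18 (SE 0.387) to -0.06 without WT replicate 1. MST1 went from -0.06 to 0.03 without WT replicate 3 and F2RL1 from 0.01 to -0.02 without R272K replicate 3. With 1 library left out, MET ranged from -0.12 to 0.06, HGF from -0.06 to 0.34, MST1 from -0.17 to 0.03 and F2RL1 from -0.02 to 0.03. Members called numbered 1 (SPINT1) under each alternative that kept all 6 libraries, and 0 to 2 with 1 library left out. Pathway genes called were counted only among the 55 tested as reported, so the 33 untested ones were not counted with no filter. Those called numbered 1 as reported, 4 with no filter, 3 with DESeq2 and 4 with the gene length trend removed. They numbered 0 with limma on log2(TPM + 1), 0 with limma on log2(TPM + 0.1), and 0 to 6 with 1 library left out. Over all genes 193 were called, 474 with no filter (36623 genes tested), 104 and 101 with limma on log2(TPM + 1) and log2(TPM + 0.1), and 619 with the gene length trend removed. Leaving out 1 library gave 55 (without R272K replicate 3) to 875 (without WT replicate 1). The causes were not tested. With the replicate number as a block 262 genes were called, SPINT1 at 0.51 (adjusted p = 0.0204). Deviations of libraries with the same number correlated at -0.065, -0.00715 and -0.012 across genes. Those of libraries with different numbers correlated at -0.0599 to 0.0726. No label says that libraries with the same number shared a culture or day, and these correlations cannot settle it. Mean TPM of the 5 tested members moved by less than the replicate SD when recomputed over the genes tested. Depth limits ST14, PRSS8 and HGF, each with under 50 reads per group.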

Other observations

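SCNN1A, which encodes a subunit of the epithelial sodium channel that prostasin activates, was too low to be tested and was picked out after its values were seen. It had 4, 1 and 1 reads in the WT replicates and 6, 9 and 9 in the R272K replicates, so the groups did not overlap, at 0.12 and 0.526 CPM on average. The other 2 subunit genes had fewer reads, SCNN1B with 3 reads in WT and 6 in R272K, and SCNN1G with 2 and 6. Among the 33 untested genes of the lists, non-overlap was seen in both directions. SCNN1G and COL28A1 (16 reads in WT and 22 in R272K) were higher with R272K, while KLK4 (24 and 15) and KLK10 (6 and 0) were lower. Over all genes tested the share without overlap was 21.4%. Those genes passed the filter that these failed, so the share is from a set with higher counts.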
